A study of Mus musculus with 48 samples.

Results

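The germ layer and extraembryonic lineage regulators examined here are 38 genes, taken by name from the 55376 gene rows of a mouse nascent RNA count table. By role they are 10 genes of the primitive streak and mesoderm, 8 of the endoderm, 8 of the trophoblast, 8 of the neuroectoderm and 4 of the formative epiblast. Every one of the 38 had a row in the table. Their counts were set against 1434 olfactory and vomeronasal receptor genes, which serve as the level of silent genes.

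The cells were a line of mouse embryonic stem cells, TCF2.2, derived in 2i medium and labelled C57BL/6, grown without serum in 2i medium on gelatin. RNA made during 5 min with 500 µM 4-thiouridine was biotinylated, pulled down and sequenced after fragmentation to about 300 nt, with synthetic ERCC RNA added in proportion to the number of cells. There were 4 groups of 2 libraries. The BRM014 group received 10 µM of an inhibitor of the ATPases of BRG1 and BRM for 3 h, and the DMSO group received solvent for 3 h. The Chd4 shRNA group was transduced with a lentivirus carrying an shRNA against Chd4, and the SCR shRNA group with a scrambled shRNA, each followed by 24 h in puromycin at 1.5 µg/mL. All groups share the line, the 2i medium and the labelling, and the shRNA groups also share transduction and selection. The labels call the libraries of a group biological duplicates of 1 cell line, so the p-values measure the spread between these libraries. The comparisons ask whether blocking SWI/SNF, or depleting the NuRD ATPase CHD4, changes transcription of genes that stem cells normally keep low.

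Embryonic stem cells in 2i medium stand for the naive epiblast before implantation. Lineage regulators, mostly transcription factors, direct the exit from that state into the epiblast that is ready to form germ layers, the streak, the germ layers themselves, or the extraembryonic trophoblast and endoderm. In stem cells many of their promoters are rich in CpG dinucleotides and carry repressive Polycomb marks together with marks of activity. SWI/SNF and NuRD are complexes that move nucleosomes, and NuRD also removes acetyl groups from histones.

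Total gene counts ranged from 6982354 to 17128981 per library, lowest in the Chd4 shRNA-labelled libraries. The silent receptor genes had 6.78 and 7.21 counts per kb in the Chd4 shRNA-labelled libraries, against 1.32 to 2.66 in the other 6. Chd4 itself had 730 and 760 counts in the Chd4 shRNA-labelled libraries and 806 and 618 in the scrambled ones, a log2 fold change of 0.57 ± 0.16 (SE) with an edgeR adjusted p of 0.0053. These nascent counts therefore do not show a knockdown, which acts on the finished mRNA, and the libraries are named by their label throughout. All 16 naive stem cell markers were at least 10-fold above the silent level in the other 6 libraries, with summed ratios of 298 to 451, and 15 of 16 were at least 3-fold above it in the Chd4 shRNA-labelled libraries, with summed ratios of 31.0 and 34.3. Markers of fibroblasts stayed between 1.23 and 1.74 times the silent level in sum, and 0 of 9 had 0 counts.

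Promoters of regulators whose nascent RNA stood clear of the silent genes are shown first. Those with a window share a base composition that the choice of genes did not use. Windows were matched for 5 of the 8 regulators at 3-fold the silent level or above, with 2 windows for Gata2. Tead4, Tfap2c and Zic2 had no window, so the composition of their promoters was not examined. Each window runs from 250 bases before to 50 bases after a RefSeq transcript start on GRCm38.p6, 5′ to 3′ on the strand of the gene, and capitals mark CpG dinucleotides.
Tubb3, chr8:123411303-123411602 (+): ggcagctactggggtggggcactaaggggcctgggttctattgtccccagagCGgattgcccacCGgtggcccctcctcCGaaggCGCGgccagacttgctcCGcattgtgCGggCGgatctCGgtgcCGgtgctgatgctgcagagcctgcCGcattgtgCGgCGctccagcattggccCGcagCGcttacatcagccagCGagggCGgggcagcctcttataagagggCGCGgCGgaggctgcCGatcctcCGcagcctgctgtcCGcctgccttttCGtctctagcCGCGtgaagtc
Nes, chr3:87970843-87971142 (+): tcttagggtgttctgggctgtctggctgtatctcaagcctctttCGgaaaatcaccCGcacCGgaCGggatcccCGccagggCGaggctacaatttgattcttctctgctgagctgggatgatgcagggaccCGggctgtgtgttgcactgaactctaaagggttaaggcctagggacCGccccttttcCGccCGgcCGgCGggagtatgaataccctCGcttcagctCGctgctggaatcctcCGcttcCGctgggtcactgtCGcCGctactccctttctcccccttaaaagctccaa
Gsc, chr12:104473187-104473486 (-): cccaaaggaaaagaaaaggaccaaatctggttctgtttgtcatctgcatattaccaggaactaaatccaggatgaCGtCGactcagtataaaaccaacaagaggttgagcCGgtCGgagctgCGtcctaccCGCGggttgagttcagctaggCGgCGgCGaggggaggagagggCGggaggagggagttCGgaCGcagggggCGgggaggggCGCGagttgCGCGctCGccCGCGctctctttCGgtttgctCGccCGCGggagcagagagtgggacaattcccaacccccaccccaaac
Gata2, first start, chr6:88193641-88193940 (+): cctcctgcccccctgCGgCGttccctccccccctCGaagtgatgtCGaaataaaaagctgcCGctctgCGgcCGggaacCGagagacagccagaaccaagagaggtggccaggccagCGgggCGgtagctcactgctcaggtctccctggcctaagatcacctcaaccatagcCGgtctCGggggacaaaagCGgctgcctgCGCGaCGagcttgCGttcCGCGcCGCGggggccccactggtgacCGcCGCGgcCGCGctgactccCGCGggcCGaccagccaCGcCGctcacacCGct
Gata2, second start, chr6:88198414-88198713 (+): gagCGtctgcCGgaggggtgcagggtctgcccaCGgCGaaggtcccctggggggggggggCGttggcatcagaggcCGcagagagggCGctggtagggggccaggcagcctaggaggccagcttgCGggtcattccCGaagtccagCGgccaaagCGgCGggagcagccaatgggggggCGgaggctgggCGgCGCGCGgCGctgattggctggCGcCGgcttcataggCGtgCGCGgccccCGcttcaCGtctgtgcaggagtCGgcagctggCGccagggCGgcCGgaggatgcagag
Sox1, chr8:12395269-12395568 (+): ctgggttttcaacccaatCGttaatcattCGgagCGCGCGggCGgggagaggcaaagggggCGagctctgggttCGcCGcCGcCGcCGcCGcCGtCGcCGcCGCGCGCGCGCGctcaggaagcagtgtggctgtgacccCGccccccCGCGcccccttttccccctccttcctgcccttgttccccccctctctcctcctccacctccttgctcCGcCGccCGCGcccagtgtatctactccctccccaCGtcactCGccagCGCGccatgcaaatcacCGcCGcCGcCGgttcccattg
Windows of regulators near the silent level are set beside them for contrast, with 17 CpGs at T, 4 at Mesp1 and 3 at Elf5. All of these held fewer CpGs than the windows above. Other windows of regulators near the silent level did not, such as those of Hes5 with 41 and of Zic1 and Lhx1 with 31 each.
T, chr17:8434173-8434472 (+): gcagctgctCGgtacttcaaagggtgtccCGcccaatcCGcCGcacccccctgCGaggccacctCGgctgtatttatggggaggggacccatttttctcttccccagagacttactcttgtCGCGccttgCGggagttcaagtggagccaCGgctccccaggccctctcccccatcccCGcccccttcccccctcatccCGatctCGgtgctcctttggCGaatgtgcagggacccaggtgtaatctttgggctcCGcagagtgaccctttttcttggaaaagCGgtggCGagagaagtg
Mesp1, chr7:79793541-79793840 (-): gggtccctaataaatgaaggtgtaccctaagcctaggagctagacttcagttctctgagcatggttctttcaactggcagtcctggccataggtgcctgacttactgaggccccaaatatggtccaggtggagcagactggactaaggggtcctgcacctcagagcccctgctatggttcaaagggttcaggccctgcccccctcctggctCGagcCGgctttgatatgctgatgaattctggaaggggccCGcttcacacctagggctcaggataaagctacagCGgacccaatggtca
Elf5, first start, chr2:103411848-103412147 (+): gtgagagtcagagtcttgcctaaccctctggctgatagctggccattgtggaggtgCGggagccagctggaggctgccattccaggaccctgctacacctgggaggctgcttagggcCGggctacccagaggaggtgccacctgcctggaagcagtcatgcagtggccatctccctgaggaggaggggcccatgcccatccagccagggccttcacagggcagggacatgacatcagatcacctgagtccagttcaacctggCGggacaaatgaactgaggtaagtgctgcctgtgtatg

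RefSeq windows matched 26 of the 38 regulators, with 37 starts. The 6 windows of the 5 matched regulators at 3-fold the silent level or above held 18 to 37 CpGs, with a median of 27.5. The 31 windows of the 21 regulators under 3-fold held a median of 13, and all 32841 windows of the genome held a median of 7. A ratio of observed to expected CpG of at least 0.6 was found in 6 of 6 windows at 3-fold, in 18 of 31 (58.1%) under 3-fold and in 35.8% of all windows. Counts near the silent level were found with many CpGs as well as with few: Hes5, a Notch-responsive repressor, had 41 CpGs and counts at the silent level, while Elf5, a trophoblast factor, had 3 at its first start. GGGCGG, searched on both strands, occurred in 6 of 6 windows at 3-fold, in 13 of 31 (41.9%) under 3-fold and in 35.7% of all windows. TATAAA, searched on both strands, occurred in 1 of the 6, that of Gsc, and in 13.6% of all windows. CCAAT, searched on both strands, occurred in 3 of the 6 and in 37.4% of all windows. Matches of different motifs can share bases, as those of CCAAT and of GGGCGG on the other strand do in the T window. These are descriptions of sequence and no test was made of them.

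**Figure D1:**
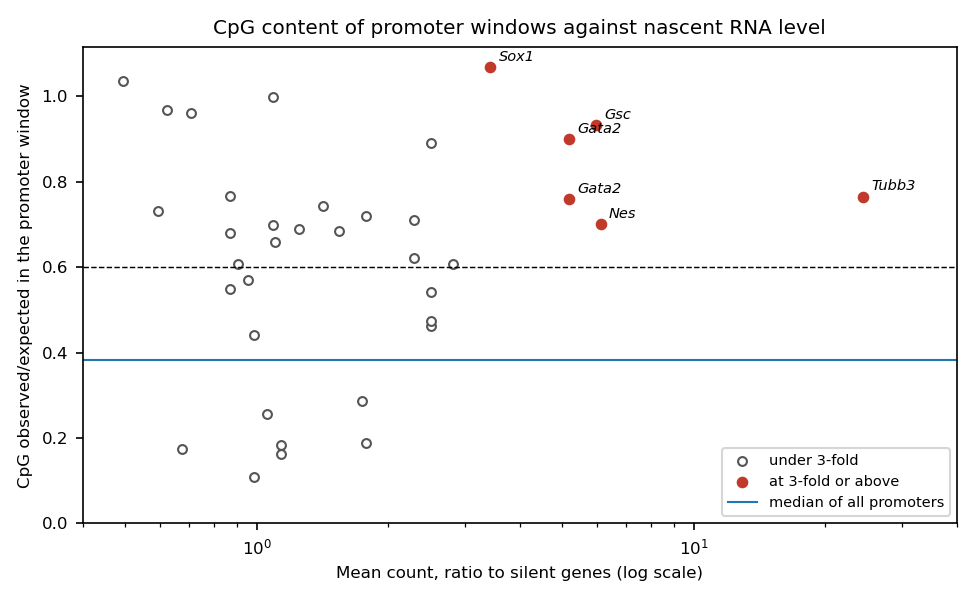
CpG observed over expected in the 37 promoter windows (y axis) against the mean count of the gene as a ratio to the silent level (x axis, log scale). Filled points are genes at 3-fold or above, the dashed line is 0.6 and the blue line is the median of all windows. All 6 filled windows lie above 0.6, while windows of genes near the silent level lie on both sides of it.

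Most of the regulators lay under 3-fold the silent level on average. That average includes the Chd4 shRNA-labelled libraries, where the silent level was higher. Lying under 3-fold does not by itself make a gene silent, as the values by group given below show. Averaged over the 8 libraries, 3 of 38 had at least 10 times the count that silent genes of their length would give, against 14.9% of all genes, and 8 of 38 had at least 3 times that count, against 31.9% of all genes. The other 30 lay under 3-fold, 26 of them under 2-fold, and the median over the 38 was 1.10. In no group did 25 of the 38 reach 3-fold. The genes on either side of the 10-fold limit were Tfap2c at 10.2 and Zic2 at 8.36.

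The streak and mesoderm genes were near the silent level apart from Gsc and Eomes. In the 10 genes of this role the median ratio was 1.15. Gsc, the organizer homeobox factor, averaged 5.99 times the silent level. Eomes, a T-box factor of the streak and of trophoblast, averaged 2.82 times, with 48 and 47 counts in DMSO, 37 and 44 in BRM014, 30 and 30 in the scrambled and 37 and 40 in the Chd4 shRNA-labelled libraries. These raw counts come from libraries of unlike size, and the count expected from silent genes was 58.1 over both Chd4 shRNA-labelled libraries and 13.1 to 21.99 in the other groups. As a ratio to the silent level Eomes was at 4.32 in DMSO, 4.53 in BRM014, 4.57 in the scrambled and 1.33 in the Chd4 shRNA-labelled libraries. Per kb, with the silent level taken off and scaled to a library of mean size, the means were 5.99, 5.91, 7.40 and 4.99, in the same order. T, the founding T-box gene of mesoderm, averaged 0.905 times the silent level, with 6 and 3 counts in BRM014, 5 and 2 in DMSO, 3 and 3 in the scrambled and 18 and 16 in the Chd4 shRNA-labelled libraries. Silent genes of its length would give 32.4 counts over the latter libraries, where T had 34. Mixl1, a homeobox gene of the streak, had 1 to 18 counts and averaged 1.04 times. Mesp1, a regulator of early cardiac mesoderm, had 0 to 9 counts, and Hand1, a factor of extraembryonic mesoderm, trophoblast and heart, had 0 to 12. Tbx6, a factor of paraxial mesoderm, was at 3.04 times the silent level in DMSO with 17 and 12 counts and at 1.16 times in BRM014 with 3 and 6, and it was too low for the test described below. Wnt3, the ligand that induces the streak, Kdr, a receptor for VEGF, and Lhx1, a factor of the organizer, averaged 1.42, 1.25 and 0.707 times.

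The endoderm genes were the lowest role as a whole, with a median ratio of 0.998 and 0 of 8 at 3-fold on average. Gata4, a zinc finger factor of primitive endoderm and heart, was the highest at 2.48 times. It had 35 and 37 counts in DMSO, 37 and 40 in BRM014, 15 and 19 in the scrambled and 36 and 40 in the Chd4 shRNA-labelled libraries, which is 3.48, 4.58, 2.76 and 1.39 times the silent level. Dab2, an endocytic adaptor made by primitive endoderm, averaged 1.78 times. It had 100 and 88 counts in the Chd4 shRNA-labelled libraries and 22 to 34 in the other 6. Those libraries stood above all others in counts but not in ratio (1.83 times, against 2.29 in the scrambled), where the silent level itself was higher. Per kb, with the silent level taken off and scaled to a library of mean size, the Dab2 value was larger there. Its level was 12.7 ± 2.98, against 2.66 ± 0.154 in the scrambled (SD, n = 2), and it was too low for the test described below. The SD does not cover error in the silent level. The 95th percentile of the silent genes in the Chd4 shRNA-labelled libraries was 1.61 times that level, not far under the 1.83 of Dab2. Whether Dab2 rose was not tested. Sox17, a factor of definitive endoderm, Sox7, its relative in parietal endoderm, Gata6, a partner of Gata4 in primitive endoderm, and Foxa2, a pioneer factor of endoderm, averaged between 0.747 and 0.940 times. Pdgfra, the growth factor receptor of primitive endoderm, and Hnf4a, a nuclear receptor of visceral endoderm and liver, averaged 1.06 and 1.14 times. Sox17 had 8 to 31 counts and Pdgfra 10 to 79.

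The trophoblast genes ranged from 0.595 to 14.2 times the silent level on average. Tead4, which starts the trophectoderm programme, averaged 14.2 times the silent level, Tfap2c, an AP-2 factor also active in stem cells and germ cells, 10.2 times, and Gata2, a zinc finger factor of trophoblast giant cells and blood, 5.20 times. Tfap2a, an AP-2 factor of ectoderm and neural crest, averaged 2.30 times, and Ascl2, which maintains the spongiotrophoblast, 1.54 times. Cdx2, the caudal factor that fixes trophoblast fate, had 1 to 13 counts and averaged 0.595 times, Elf5 had 3 to 57 counts and averaged 0.986 times, and Gata3, a partner of Gata2, had 3 to 39 counts and averaged 1.10 times. A gene of the opposite strand, Gm47061, overlaps Tfap2a with a mean of 28.3 counts against 37.6 for Tfap2a, and the strand that was counted is not given in the sources used here.

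Among neuroectoderm genes Tubb3, which encodes a neuronal beta-tubulin, was the highest of all 38 at 24.3 times the silent level. Nes, an intermediate filament protein of neural progenitors, averaged 6.12 times, and Sox1, an early neural SOX factor, 3.42 times. The other 5 averaged 0.494 to 1.09 times: Pax6, the eye and forebrain factor, with 11 to 87 counts, Neurog2, a proneural factor, with 2 to 19, Pax3, a dorsal neural tube and crest factor, with 5 to 42, Zic1, with 2 to 28, and Hes5, with 0 to 5. In the formative epiblast role Zic2, a zinc finger factor of primed epiblast, averaged 8.36 times and Otx2, which drives the exit from the naive state, 2.51 times. Otx2 had 44 and 40 counts in DMSO, 15 and 39 in BRM014, 21 and 30 in the scrambled and 40 and 54 in the Chd4 shRNA-labelled libraries, and a gene of the opposite strand, Otx2os1, overlaps it with a mean of 17.3 counts. Pou3f1, a POU factor of the primed epiblast, averaged 1.10 times and Sox3, a SOXB1 factor, 0.453 times.

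**Figure D2:**
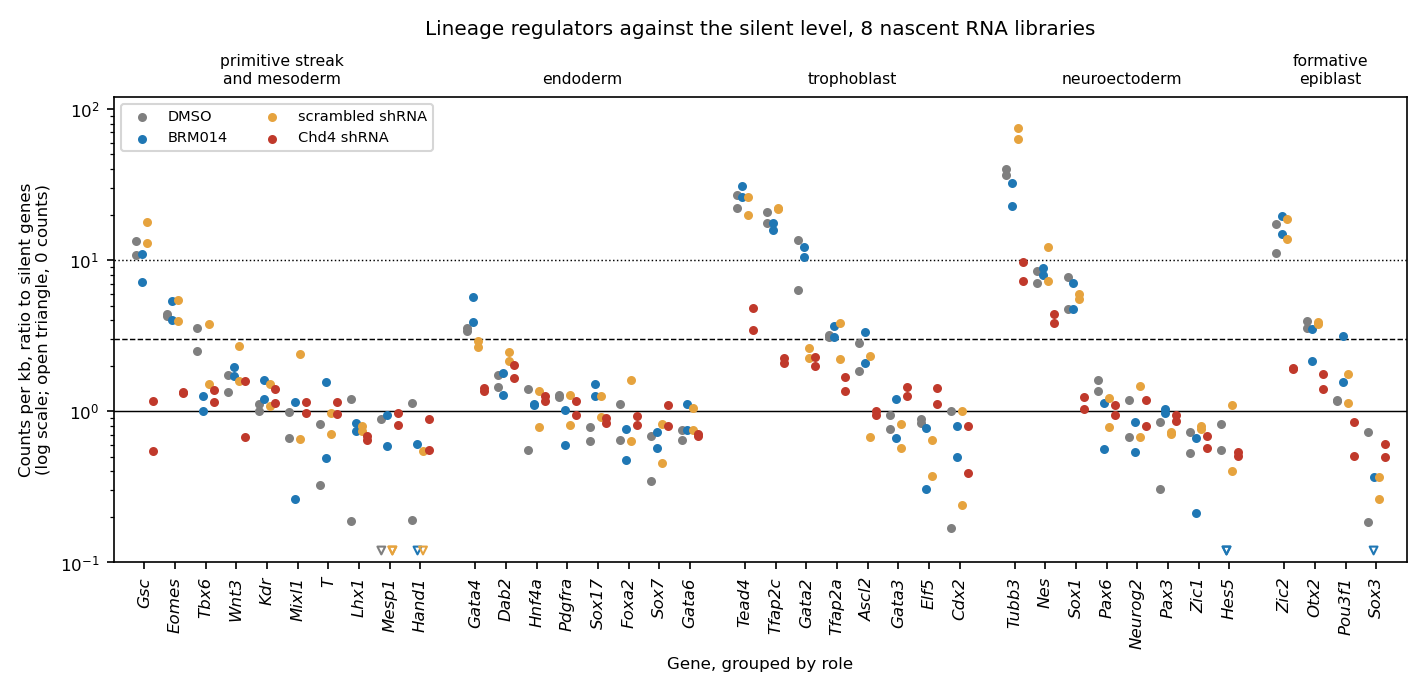
Counts per kb of each of the 38 regulators in each of the 8 libraries, as a ratio to the pooled counts per kb of the silent receptor genes in the same library (y axis, log scale), by role. The solid, dashed and dotted lines mark 1, 3 and 10 times the silent level and open triangles mark libraries with 0 counts. Tubb3, Tead4, Tfap2c and Zic2 lie above 10 in each library of the DMSO, BRM014 and scrambled groups, and all 38 lie under 10 in both Chd4 shRNA-labelled libraries.

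By group, 13 of the 38 were at 3-fold or above in DMSO, 11 in BRM014, 9 in the scrambled and 3 in the Chd4 shRNA-labelled libraries. Over all genes the shares at 3-fold were 37.3%, 35.9%, 37.6% and 19.7%, in the same order, so the fall in the Chd4 shRNA-labelled libraries went with the higher silent level there. The 3 were Tubb3, Tead4 and Nes. The 95% counting interval of the summed count lay wholly above the silent level for 16, 17, 15 and 14 of the 38 in DMSO, BRM014, the scrambled and the Chd4 shRNA-labelled libraries, and wholly under it for 3, 5, 2 and 7. For the latter genes the receptor genes gave a higher level than the regulators themselves, and 0.5 times the silent level was also tried. These intervals take the silent level as exact, while single silent genes spread around it. Their 95th percentile was 1.60, 1.66, 1.72 and 1.61 times the silent level in DMSO, BRM014, the scrambled and the Chd4 shRNA-labelled libraries. Above that percentile lay 14, 15, 15 and 7 of the 38, in the same order. On uncorrected counts scaled by expressed genes, 31 of 37 regulators that passed edgeR's default filter were called higher in the Chd4 shRNA-labelled libraries, but so were 74.6% of all 35426 genes that passed it. Such a count says nothing about the regulators, and the changes given below come from genes clear of the silent level.

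With BRM014, Tubb3 was called lower than with DMSO among genes at 10-fold, a call that several alternatives lost. With 2 libraries a group, values that did not pass do not show that the other regulators were unchanged. Among the genes at 10-fold, fitted with edgeR's quasi-likelihood test and adjusted over all 8272, 1 of 3 regulators was lower (4.63% of all tested genes were) and 0 of 3 were higher (3.12%). Tubb3 (chr8:123411424-123422015, mm10) had 196 and 183 counts in DMSO and 101 and 112 in BRM014, with no overlap between the groups. Its log2 fold change was -0.65 ± 0.16 (SE, n = 2 libraries a group) with an edgeR adjusted p of 0.0113. Tfap2c had 170 and 204 counts in DMSO and 108 and 154 in BRM014, and its log2 fold change of -0.34 ± 0.15 did not pass (edgeR adjusted p = 0.186). Tead4 (chr6:128224288-128300823) had 211 and 258 counts in DMSO and 184 and 249 in BRM014, overlapping groups with a log2 fold change of 0.06 ± 0.13. The Tubb3 call was lost without BRM014 r2 (-0.46, edgeR adjusted p = 0.335) and without DMSO r1 (-0.55, 0.0595), and also with DESeq2 (adjusted p = 0.0650) and with ERCC totals as library sizes (0.805 plain and 1.00 TMM-scaled).

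To reach the 5 further regulators between 3-fold and 10-fold, the count expected from silent genes of the same length was taken off each count before the same test, now over 17664 genes. With this correction 0 of 8 regulators were called higher and 0 of 8 lower with BRM014 (0.894% and 2.40% of all tested genes were, and 972 and 1717 genes had an unadjusted p under 0.05). DESeq2 on the same corrected counts also called 0 of 8. Tubb3 stood at the limit, with a log2 fold change of -0.67 ± 0.19 and an edgeR adjusted p of 0.05002. Gsc had 36 and 45 counts in DMSO and 23 and 24 in BRM014, with no overlap, and a log2 fold change of -0.65 ± 0.32 (edgeR adjusted p = 0.333). Nes had 119 and 145 counts against 94 and 135, with a log2 fold change of -0.03 ± 0.19. Zic2 had 84 and 133 against 93 and 113, Gata2 90 and 196 against 110 and 150, and Sox1 60 and 100 against 57 and 61. The groups overlapped for these 4 genes, and DMSO r2 gave the highest of the 4 counts for each.

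**Figure D3:**
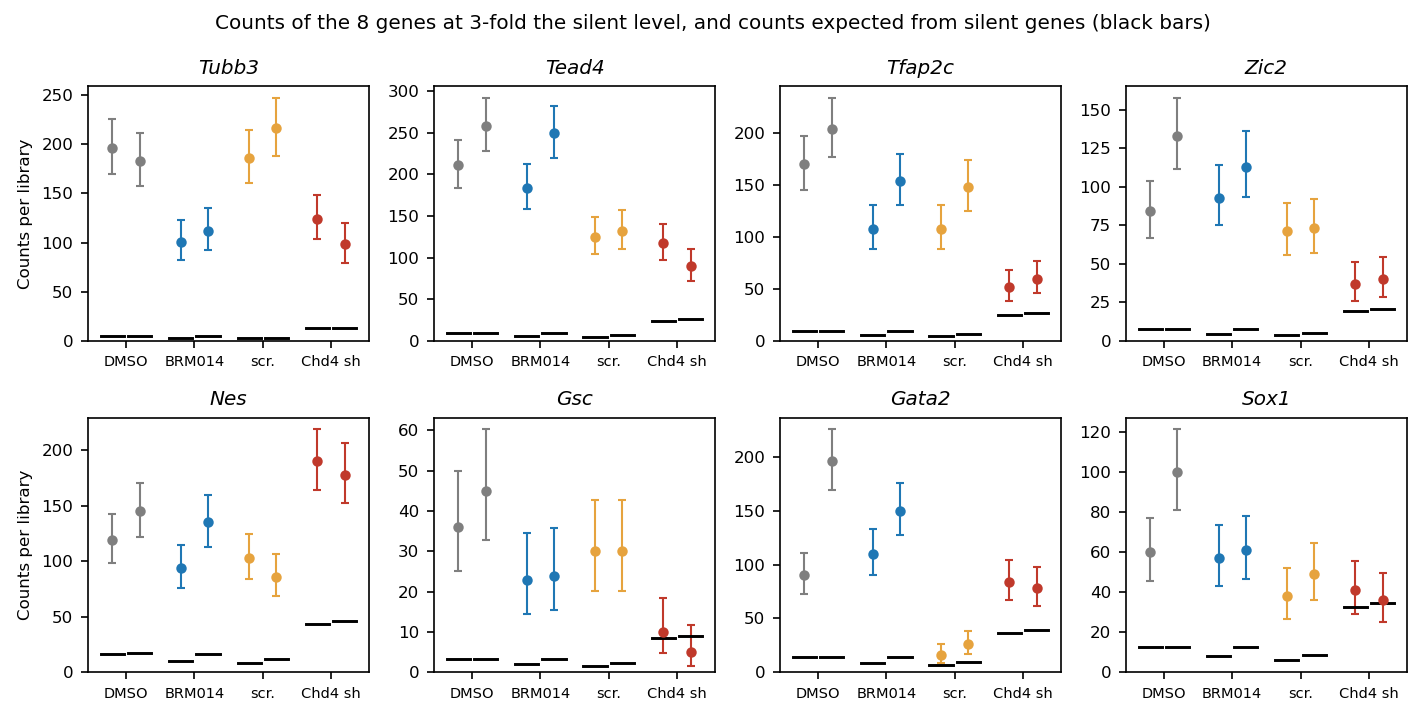
Counts per library of the 8 regulators at 3-fold the silent level or above (y axis, a scale per gene), in DMSO, BRM014, scrambled (scr.) and Chd4 shRNA (Chd4 sh) libraries. Points are single libraries with 95% exact Poisson intervals, which cover counting error only, and black bars are the counts expected from silent genes of the same length. Gsc and Sox1 points of the Chd4 shRNA-labelled libraries lie at the black bars, while Nes lies far above them.

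In the Chd4 shRNA-labelled libraries the 8 regulators moved apart: after the correction Nes and Gata2 were higher than with the scrambled shRNA, Gsc, Sox1, Tfap2c and Zic2 were lower, and Tead4 and Tubb3 did not pass. The count of 2 of 8 higher compares with 23.6% of all 17664 genes and the count of 4 of 8 lower with 11.7%. These counts depend on the rule of entry: only Tubb3, Tead4 and Nes were at 3-fold in the Chd4 shRNA-labelled libraries, and the others entered through other groups. With edgeR's default filter instead, the corrected fit called 6 of 37 regulators higher and 4 lower, against 6627 and 2341 of 35426 genes. The median log2 fold change was -0.72 over the 8 and 0.21 over all tested genes. Each corrected value of this comparison would thus be 0.21 lower when read against the typical gene. With Gsc and Sox1, which were at the silent level in the Chd4 shRNA-labelled libraries, set to the bounds given below, the median over the 8 was -0.23. With TMM-scaled ERCC totals 256 of all 17664 genes were higher and 124 lower, Gata2 (edgeR adjusted p = 0.0185) and Gsc (0.00193) passed, and Nes, Sox1, Tfap2c and Zic2 did not (0.231, 0.0811, 0.314 and 0.415). In simulated data for this comparison, a fit of 17664 genes called 38 unchanged genes and recovered 43 of 67 genes changed 2-fold. The simulation took off exactly the silent level it had put in, so it cannot show calls that come from a wrong silent level.

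Nes (chr3:87971078-87980451) had 103 and 86 counts in the scrambled libraries and 190 and 178 in those labelled Chd4 shRNA, where silent genes would give 43.5 and 46.2. The groups did not overlap although the latter libraries held fewer counts in all. Per kb, corrected and scaled to a library of mean size, the level was 17.2 ± 2.95 with the scrambled shRNA and 47.6 ± 2.74 in the Chd4 shRNA-labelled libraries (SD, n = 2), and 12.1 ± 1.19 and 11.96 ± 0.128 in DMSO and BRM014. The log2 fold change was 1.46 ± 0.19 with an edgeR adjusted p of 3.76e-06. Nes was higher in 2 of 2 libraries, and the call was lost with TMM-scaled ERCC totals (1.42, edgeR adjusted p = 0.231).

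Gata2 (chr6:88193891-88207032) had 16 and 26 counts in the scrambled libraries and 84 and 78 in those labelled Chd4 shRNA, where silent genes would give 36.6 and 38.9. Its corrected level was 3.03 ± 1.24 per kb with the scrambled shRNA and 17.6 ± 2.08 in the Chd4 shRNA-labelled libraries (SD, n = 2), a log2 fold change of 2.52 ± 0.41 with an edgeR adjusted p of 6.27e-05. The corrected level was 15.9 ± 8.45 in DMSO and 16.8 ± 0.447 in BRM014, so the scrambled group was the one that stood apart. Between both control groups Gata2 was lower in the scrambled one by a log2 fold change of -2.40 ± 0.37 (edgeR adjusted p = 0.000321; 1.89% of all 17664 genes were lower), a call that was lost with TMM-scaled ERCC totals (-2.75, edgeR adjusted p = 0.162). That comparison differs in transduction, selection and time, which cannot be told apart. Summed 2-cell-like marker counts were 2.56 and 3.20 times the silent level in the scrambled libraries and 0.701 to 0.977 in the other 6, and their part in the Gata2 value was not tested.

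Gsc (chr12:104471209-104473330) had 30 and 30 counts in the scrambled libraries and 10 and 5 in those labelled Chd4 shRNA, where silent genes would give 8.59 and 9.14. With both libraries at the silent level, the fitted log2 fold change of -4.91 ± 0.77 (edgeR adjusted p = 4.0e-05) is no measure of size. With the silent level taken as exact, the 95% counting limits of both groups put the corrected level at least 3.56-fold lower. Across the alternatives the fitted log2 value ran from -8.31 to -1.49, and the upper end is a smaller fall than this bound. Sox1 (chr8:12395295-12400126) had 38 and 49 counts against 41 and 36, where silent genes would give 32.8 and 34.8. Raw counts overlapped, and the Chd4 shRNA-labelled libraries were at 1.14 times the silent level with a 95% counting interval of 0.899 to 1.42, so the fitted log2 fold change of -2.24 ± 0.54 (edgeR adjusted p = 0.00237) is no measure of size for Sox1 either. From the counting limits, again with the silent level taken as exact, the corrected level was at least 1.13-fold lower. The fitted value ran from -8.37 with 1.5 times the silent level taken off to 0.33 with it left on. The Sox1 call was lost with 0.5 times the silent level taken off (-0.24, edgeR adjusted p = 0.551), with it left on (0.273), with TMM-scaled ERCC totals (0.0811) and without Chd4 shRNA r4 (-1.45, 0.0512). Sox1ot overlaps Sox1 on the same strand with a mean of 39.3 counts against 55.3.

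Tfap2c (chr2:172549593-172558622) had 108 and 148 counts in the scrambled libraries and 52 and 60 in those labelled Chd4 shRNA. Its log2 fold change was -0.69 ± 0.18 without the correction (edgeR adjusted p = 0.0045 among the 8272 genes) and -1.28 ± 0.24 with it (0.000228). It was the 1 regulator of 3 called lower among genes at 10-fold, against 20.5% of all tested genes, while 0 of 3 were called higher against 19.4%. The uncorrected call was lost without Chd4 shRNA r1 (-0.55, edgeR adjusted p = 0.0864), without SCR shRNA r3 (-0.44, 0.128) and with ERCC totals (0.857 plain and 0.928 TMM-scaled), and the corrected call with TMM-scaled ERCC totals (0.314). Zic2 (chr14:122475435-122479852) had 71 and 73 counts against 37 and 40, a corrected log2 fold change of -1.16 ± 0.30 (edgeR adjusted p = 0.00402) that did not pass with the silent level left on (-0.40, 0.133), with plain ERCC totals (-0.82, 0.107) or with TMM-scaled ones (-1.20, 0.415).

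The most transcribed regulators, Tubb3 and Tead4, did not pass in this comparison. Tubb3 had 186 and 216 counts with the scrambled shRNA and 124 and 98 in the Chd4 shRNA-labelled libraries, a corrected log2 fold change of -0.28 ± 0.19 (edgeR adjusted p = 0.263) that turned to 0.06 with plain ERCC totals. Tead4 had 125 and 132 counts against 117 and 90 and a corrected log2 fold change of 0.10 ± 0.20 (edgeR adjusted p = 0.730), of either sign across the alternatives. Tubb3 also differed between both control groups, higher in the scrambled one by a log2 fold change of 1.03 ± 0.15 (edgeR adjusted p = 4.3e-05, where 7.11% of the 8272 genes were higher). That call was lost with TMM-scaled ERCC totals (0.89, edgeR adjusted p = 1.00).

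**Figure D4:**
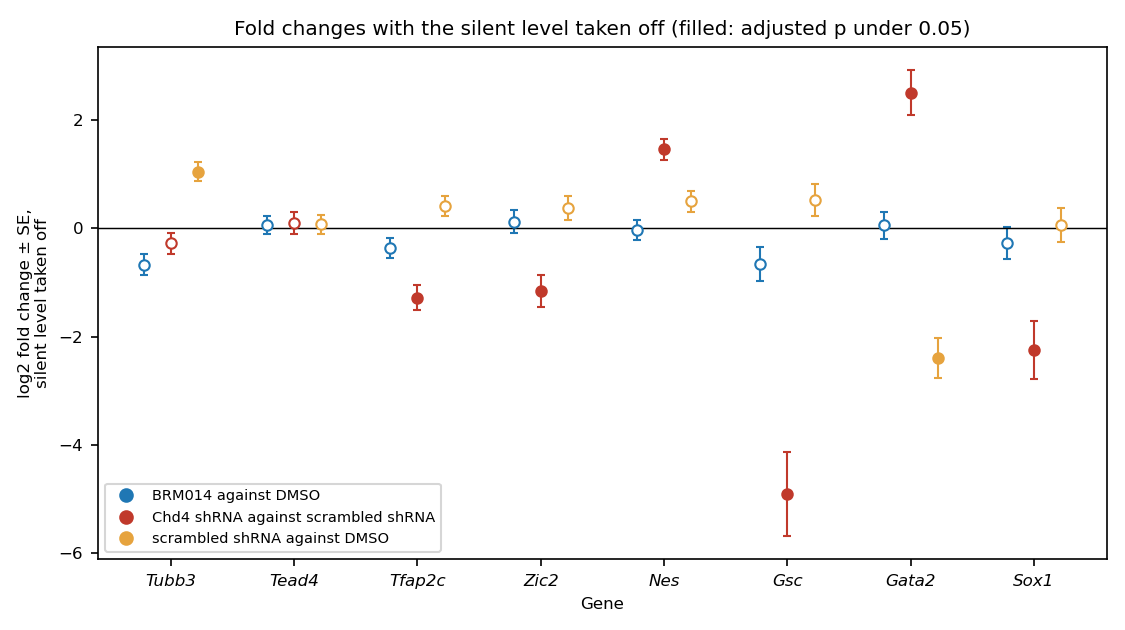
Log2 fold change with SE (y axis) of the 8 regulators with the silent level taken off, from edgeR: blue for BRM014 set against DMSO, red for Chd4 shRNA set against the scrambled shRNA, and yellow for the scrambled shRNA set against DMSO. Filled points have an adjusted p under 0.05. Blue points are all open, 6 of 8 red points are filled in both directions, and the yellow points are filled for Tubb3 and Gata2.

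The effects of both perturbations were also compared directly, as the Chd4 shRNA effect minus the BRM014 effect. Among genes at 10-fold 0 of 3 regulators differed by edgeR in either direction (15.4% of all 8272 genes in each direction, and 1695 and 1733 at an unadjusted p under 0.05), and 0 of 3 by DESeq2. With the silent level taken off, Gata2 and Nes differed upwards (2 of 8, against 18.1% of all 17664 genes) and Gsc, Sox1, Tfap2c and Zic2 downwards (4 of 8, against 8.66%). With the default filter 5 of 37 differed upwards and 4 downwards, against 4882 and 1685 of 35426 genes. The Tfap2c difference was lost without BRM014 r1 or r2, Chd4 shRNA r1, DMSO r1 or SCR shRNA r3 (edgeR adjusted p from 0.0624 to 0.152), the Sox1 difference without BRM014 r1, Chd4 shRNA r4, DMSO r1 or SCR shRNA r3 (0.0656 to 0.182), and the Zic2 difference without BRM014 r1 (0.0539). With TMM-scaled ERCC totals 0 of 8 differed, and with the silent level left on 0 of 8 differed downwards.

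Other genes of the same lineages were described from 5 lists of 116 genes in all. After the correction 38 of them could be tested, of which 0 were higher and 0 lower with BRM014 (0.894% and 2.40% of all tested genes were). In the Chd4 shRNA-labelled libraries 9 of the 38 were higher and 8 lower, against 23.6% and 11.7% of all tested genes. Their median log2 fold change was 0.01, and that of all tested genes 0.21. The share higher was thus that of all genes, and the counts by role that follow stand against the same shares. Among genes at 10-fold, without the correction, 12 of the listed genes were tested, of which 0 were higher and 1 lower with BRM014 (3.12% and 4.63% of all tested genes) and 3 higher and 5 lower in the Chd4 shRNA-labelled libraries (19.4% and 20.5%). None of the 24 further streak and mesoderm genes was high enough to be tested. Of 10 tested endoderm genes 4 were higher and 0 lower: Lamb1 (1.48 ± 0.21, edgeR adjusted p = 9.7e-06), Col4a1 (1.05 ± 0.22), Col4a2 (0.98 ± 0.24) and Lamc1 (0.53 ± 0.15), which encode laminin and type IV collagen chains of the basement membrane. Among genes at 10-fold, without the correction, 5 endoderm genes were tested and 1 was higher, Lamc1 (0.39 ± 0.15), while 2 were lower: Apoe, an apolipoprotein, at -0.45 ± 0.14 (edgeR adjusted p = 0.0152), and Sparc, a matrix-binding glycoprotein, at -0.38 ± 0.14 (0.0305). Of 13 tested trophoblast genes 3 were higher and 2 lower. Krt18, a keratin of simple epithelia, rose by 1.78 ± 0.24 with 36 and 37 counts in the scrambled and 86 and 74 in the Chd4 shRNA-labelled libraries. Gjb5, a connexin gene, fell by 1.94 on the log2 scale.

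Of 8 tested neuroectoderm genes 0 were higher and 3 lower. Hes1, a Notch-responsive repressor, had 241 and 207 counts with the scrambled shRNA and 51 and 64 in the Chd4 shRNA-labelled libraries, a log2 fold change of -1.61 ± 0.21 (edgeR adjusted p = 3.44e-06). Gbx2 and Sox21 also fell, with 16 and 14 counts and 34 and 17 counts in the Chd4 shRNA-labelled libraries. Of 7 tested formative epiblast genes 2 were higher and 3 lower. Dnmt3b, a DNA methyltransferase of the epiblast, rose by 1.05 ± 0.24, while Zic5, a relative of Zic2, fell by 1.04 ± 0.27 on the log2 scale (84 and 86 against 59 and 54 counts, edgeR adjusted p = 0.00435).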

How the data were processed

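Nascent RNA was measured in 8 libraries, 2 in each of 4 groups taken from the sample labels; 40 chromatin immunoprecipitation samples were not used here. The deposited table holds read counts per gene, made by the authors on mm10 with Trim Galore 0.6.4, STAR 2.7.1a, featureCounts and edgeR 3.32.1 per the submitters' processing notes. How reads with several alignments were treated and which strand was counted are not given in the sources used here. Columns numbered r4 for Chd4 shRNA and r3 for the scrambled shRNA carry numbers that no title has, and group names placed them. ERCC counts, also deposited by the authors, served as an alternative library size.

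The regulators, lists and tests were chosen with earlier results of these data known. The silent level is the pooled count per kb of length of 1434 genes named Olfr, Vmn1r or Vmn2r plus digits. Genes with a mean count of at least 10-fold this level (8272) were fitted over all 8 libraries by the quasi-likelihood test of edgeR 4.0.16 (R 4.3.3) after TMM scaling, with Benjamini-Hochberg adjustment and calls under 0.05. A further fit, added after the data were seen, took the silent level off each count, rounded it, and used 17664 genes at 3-fold. SEs come from the F statistic. Intervals of counts are 95% exact Poisson intervals, which cover counting error only. An exact permutation test of 2 libraries against 2 cannot go below 0.333. On simulated data 66 of 67 genes changed 2-fold were recovered among 8272 genes in the BRM014 comparison and 63 of 67 in the Chd4 shRNA comparison. With the silent level taken off, 49 of 67 were recovered in the BRM014 comparison over 17664 genes. The simulated counts had 1 dispersion for all genes and a silent level known exactly, so errors in that level were not covered. Every regulator is given by its ratio or within a range of ratios. Counts per library are given for those called in a comparison, for the highest ratios and for some others. Several further regulators have only a range of counts. From each list up to 4 called genes with the smallest p are named, less those not reported here. The alternatives were DESeq2 1.42.0, ERCC totals, other filters, a robust fit, only the libraries compared, a replicate block and each library left out.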

Additional observations from a re-analysis of the deposited data

Results flagged for a closer look

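After the silent level was taken off, 6 regulators passed the edgeR test of the difference itself, the log2 effect labelled Chd4 shRNA minus that of BRM014. Gata2 differed by 2.45 ± 0.49 (SE, edgeR adjusted p = 0.000708) and Nes by 1.49 ± 0.27 (0.000273). Downward differences were found for Gsc (-4.26), Sox1 (-1.97), Tfap2c (-0.92) and Zic2 (-1.29), with edgeR adjusted p of 0.00178, 0.024, 0.0265 and 0.0118. For Gsc and Sox1 the size is not a measure, since their counts labelled Chd4 shRNA were at the silent level. Of these 6 only Nes was at 3-fold there, and the others entered through other groups, so the calls depend on the rule of entry. The Gata2 difference rests on a low scrambled group. Its corrected level per kb was 3.03 there, against 17.6 labelled Chd4 shRNA, 15.9 in DMSO and 16.8 in BRM014. With TMM-scaled ERCC totals 0 of these 6 differences passed. The perturbations also differ in duration and delivery, and these cannot be told apart from the target.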

How the results depend on the processing

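The number of regulators at 10-fold the silent level was 3 with either receptor family or with the median of silent genes, 8 at a 3-fold limit, 0 at a 30-fold limit and 2 to 4 without each library in turn. In the fit at 10-fold, 1 regulator (Tubb3) was lower with BRM014 and 0 were with DESeq2, with either ERCC scale, with no filter on low counts or with a log2 change of 1 or more in size required; without each library the number was 0 to 1, and 0 were higher under every alternative. For the Chd4 shRNA-labelled libraries, 1 (Tfap2c) was lower; 0 were with either ERCC scale or with a change of that size, 4 with genes at 3-fold, 2 with the default filter or no filter under the TMM factors of the 10-fold genes, 6 with TMM over the default-filter genes, and 0 to 2 without each library. The number higher went from 0 to 1 with plain ERCC totals, 2 with genes at 3-fold, 31, 17 and 32 with those 3 wider gene sets, which hold mostly genes at the silent level. The difference of both effects went from 0 to 2, 30, 9 and 29 upwards with genes at 3-fold and the same 3 sets, and from 0 to 3, 6 and 1 downwards with genes at 3-fold, TMM over the default-filter genes and the silent level taken off 10-fold genes.

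With the silent level taken off, 1 regulator (Tubb3) became lower with BRM014 when the silent level was left on, with the default filter, with 0.5 times the silent level, with a robust fit or with only the 4 libraries compared, and 0 to 1 without each library. In the Chd4 shRNA-labelled libraries 2 higher became 6 of 37 with the default filter, where 6627 of 35426 genes were higher, and 1 with TMM-scaled ERCC totals, and 4 lower became 2 with the silent level left on, 1 with TMM-scaled ERCC totals and 3 to 4 without each library. For the difference, 2 upwards became 5 and 0 with the default filter and TMM-scaled ERCC totals, and 4 downwards became 0 with the silent level left on or TMM-scaled ERCC totals, 1 with plain ERCC totals or 0.5 times the silent level, and 1 to 4 without each library. The cause of these changes was not tested, apart from the wider gene sets.

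Log2 fold changes that turned sign belonged to values that did not pass, apart from those of Sox1 labelled Chd4 shRNA and its difference. In the 10-fold fit they were Tead4 labelled Chd4 shRNA (-0.19 with genes at 3-fold, -1.14 with TMM over the default-filter genes), Tubb3 there (0.22, plain ERCC totals), and for the difference Tead4 (-0.28, -1.26) and Tubb3 (-0.11, -1.09) under the first 2 settings and Tfap2c (0.26, plain ERCC totals). With the silent level taken off they were Nes with BRM014 (0.0026 with DESeq2, 0.0787 with TMM-scaled ERCC totals, 0.0024 with 1.5 times the silent level), Tead4 labelled Chd4 shRNA (-0.0594 with DESeq2, -0.0017 with 1.5 times), Tubb3 there (0.0564, plain ERCC totals), and for the difference Tead4 (-0.15, -0.14 and -0.0832 with DESeq2, TMM-scaled ERCC totals and 1.5 times) and Sox1 (0.58 with the silent level left on, 0.036 with 0.5 times). Sox1 labelled Chd4 shRNA, a call, turned to 0.33 with the silent level left on. Without each library, ranges that crossed 0 were, with BRM014, -0.0307 to 0.14 for Tead4 in the 10-fold fit and, corrected, -0.0196 to 0.14 for Tead4, -0.39 to 0.73 for Gata2, -0.12 to 0.0703 for Nes, -0.60 to 0.15 for Sox1 and -0.14 to 0.45 for Zic2. They were -0.18 to 0.31 for corrected Tead4 labelled Chd4 shRNA, and for its difference -0.0249 to 0.30 in the 10-fold fit and -0.24 to 0.26 corrected.

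The median of the 8272 genes shifted by 0.14 (log2) with BRM014 and 0.19 labelled Chd4 shRNA on TMM-scaled ERCC totals, and by 0.59 for the latter on plain totals. Same-numbered BRM014 and DMSO libraries deviated with r = -0.24 over 8272 genes. With 2 libraries a group this compares 1 difference with 1 other, so it cannot show whether the numbers mark pairs, and the labels do not say. With the replicate block 0 regulators were higher and 1 lower (304 and 450 of all genes), and with crossed numbers 0 and 1 (371 and 456). No paired analysis was possible for the shRNA groups because their columns share 1 number.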
